A study of Mus musculus with 7 samples.

Results

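Complex I (NADH:ubiquinone oxidoreductase) is the entry enzyme of the mitochondrial respiratory chain. It takes electrons from NADH, passes them along a flavin and a row of iron-sulfur clusters to ubiquinone, and pumps protons across the inner membrane. Its matrix arm holds the NADH module, where electrons enter, and the quinone module, where they leave. Its membrane arm carries out proton transfer and is built around subunits made from mitochondrial DNA, which were not analysed here. The nuclear genome encodes the remaining core subunits, a larger number of supernumerary subunits that surround the core, and assembly factors that help to build the complex and are not part of the finished enzyme. Erythroblasts, the nucleated precursors of red cells, use mitochondria for heme and iron-sulfur cluster synthesis and lose them as they mature. SOD2 is the superoxide dismutase of the mitochondrial matrix, and complex I is a known source of the superoxide that SOD2 removes.

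The genes described here are those whose platform symbol starts with Ndufa, Ndufb, Ndufc, Ndufs or Ndufv, and they numbered 44 of the 18193 genes with a probe set of their own on an Affymetrix mouse expression array. They comprised 34 subunits, 8 assembly factors (the Ndufaf genes) and 2 related proteins, Ndufa4, which is now counted with complex IV, and its paralog Ndufa4l2. Each gene was represented by the brightest of the probe sets matched to it alone, and 88 such probe sets covered the 44 genes. A further 10 probe sets shared between one of these genes and another gene were kept apart. Ndufs6 and Ndufa11 had only shared probe sets.

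RNA came from TER-119+ CD71+ erythroblasts sorted from the marrow of mice reconstituted with Sod2-/- or Sod2+/+ hematopoietic cells. The Sod2-/- group held replicates 31, 35 and 39 (n = 3) and the Sod2+/+ group replicates 17, 29, 33 and 37 (n = 4). Both groups had the same history. Donor cells were fetal liver cells of littermate embryos at E13.5 to E16.5, bred from heterozygous B6-Sod2tm1Cje mice. The Sod2tm1Cje allele lacks exon 3 of Sod2, and Sod2-/- embryos carry it on both copies in every cell. Recipients were irradiated female C57BL/6 mice of the Ly5.1 congenic line, aged 11 to 15 weeks, so only the transplanted blood cells lacked Sod2 and the host tissues were of wild type. The sort used erythroid surface markers and not the donor marker. No source used here says that the arrays stand for different animals, and a p-value therefore measures only how far these 7 samples spread. Sod2 itself, on its brightest probe set, differed by -0.04 on the log2 scale (SE 0.15, adjusted p = 0.913 by limma). The paper states that some Sod2 probe sets on the array lie outside the deleted exons. Whether this one does was not examined, so its value is no check of the genotype.

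Some facts of the arrays touch every value below. The deposited values are log2 intensities from robust multi-array averaging (RMA), and array medians lay between 4.45 and 4.54. The upper end of the distribution differed more, since the 95th percentile was 8.42, 8.20 and 8.32 in Sod2-/- replicates 31, 35 and 39 and 8.52, 8.71, 8.42 and 8.60 in Sod2+/+ replicates 17, 29, 33 and 37. Over all genes the median log2 fold change, always Sod2-/- minus Sod2+/+, was 0.02, but over the 1874 genes with a mean log2 value of at least 8 it was -0.25, and 74.8% of those lay below 0. Most complex I subunits lie in that bright range, so both backgrounds are given. Of the marker lists for the cells the gate could hold, 0 of 8 erythroblast markers passed the test (median 0.10, with 1 below 0). For 2 of these 8, Tfrc (0.20, adjusted p = 0.175) and Alas2 (0.13, adjusted p = 0.306), every Sod2-/- value lay above every Sod2+/+ value. Of all genes 7.19% showed that pattern. Hba-a1 was read on a dim probe set (mean 4.39). In contrast, 6 of 9 B cell markers were lower in Sod2-/- (median -0.78), and 10 of 10 neutrophil markers lay below 0 with 0 past the test (median -0.73). Summed linear levels of the neutrophil markers ran from 16384 to 34050 on Sod2-/- arrays and from 34229 to 42762 on Sod2+/+ arrays, and those of the B cell markers from 301 to 351 on Sod2-/- arrays and from 598 to 735 on Sod2+/+ arrays. Of the macrophage, T cell and megakaryocyte markers 0 of 8, 0 of 5 and 0 of 4 passed, although macrophage markers were high on Sod2-/- replicate 39 (C1qb at 8.09, against 4.57 and 4.64 on the other Sod2-/- arrays and 4.44 to 4.58 on Sod2+/+ arrays). The part of these lists in the results below was not tested. In sorted bulk RNA, fewer cells of a type and less RNA per cell cannot be told apart. The paper reports a larger share of immature basophilic erythroblasts in Sod2-/- marrow. It also reports Tfrc as higher in Sod2-/- cells by array, by PCR and by surface staining. Its sorting gate for the arrays took several erythroblast stages together, so the groups may differ in stage. The part of stage in the results below was not tested.

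Complex I genes were lower in Sod2-/- erythroblasts as a group. Of the 44 genes, 42 had a lower mean in Sod2-/-, where 45.8% of all genes did, and 15 passed the limma test at an adjusted p of 0.05, all of them subunits and all lower. This was 34.1% of the 44 genes, where 4.47% of all genes and 11.8% of the bright genes were called lower. None was called higher by limma, as 0.412% of all genes and 2.08% of the bright genes were, and none was higher at an unadjusted p under 0.05 (0 of 44). At a fold change of at least 1.5 as well, 9 were lower, where 2.80% of all genes and 6.78% of the bright genes were. The values of the 3 Sod2-/- arrays lay wholly below those of the 4 Sod2+/+ arrays for 27 of the 44, a pattern that 14.8% of all genes and 35.7% of the bright genes showed. The reverse pattern, seen in 7.19% of all genes, was found for 0 of the 44.

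**Figure D1:**
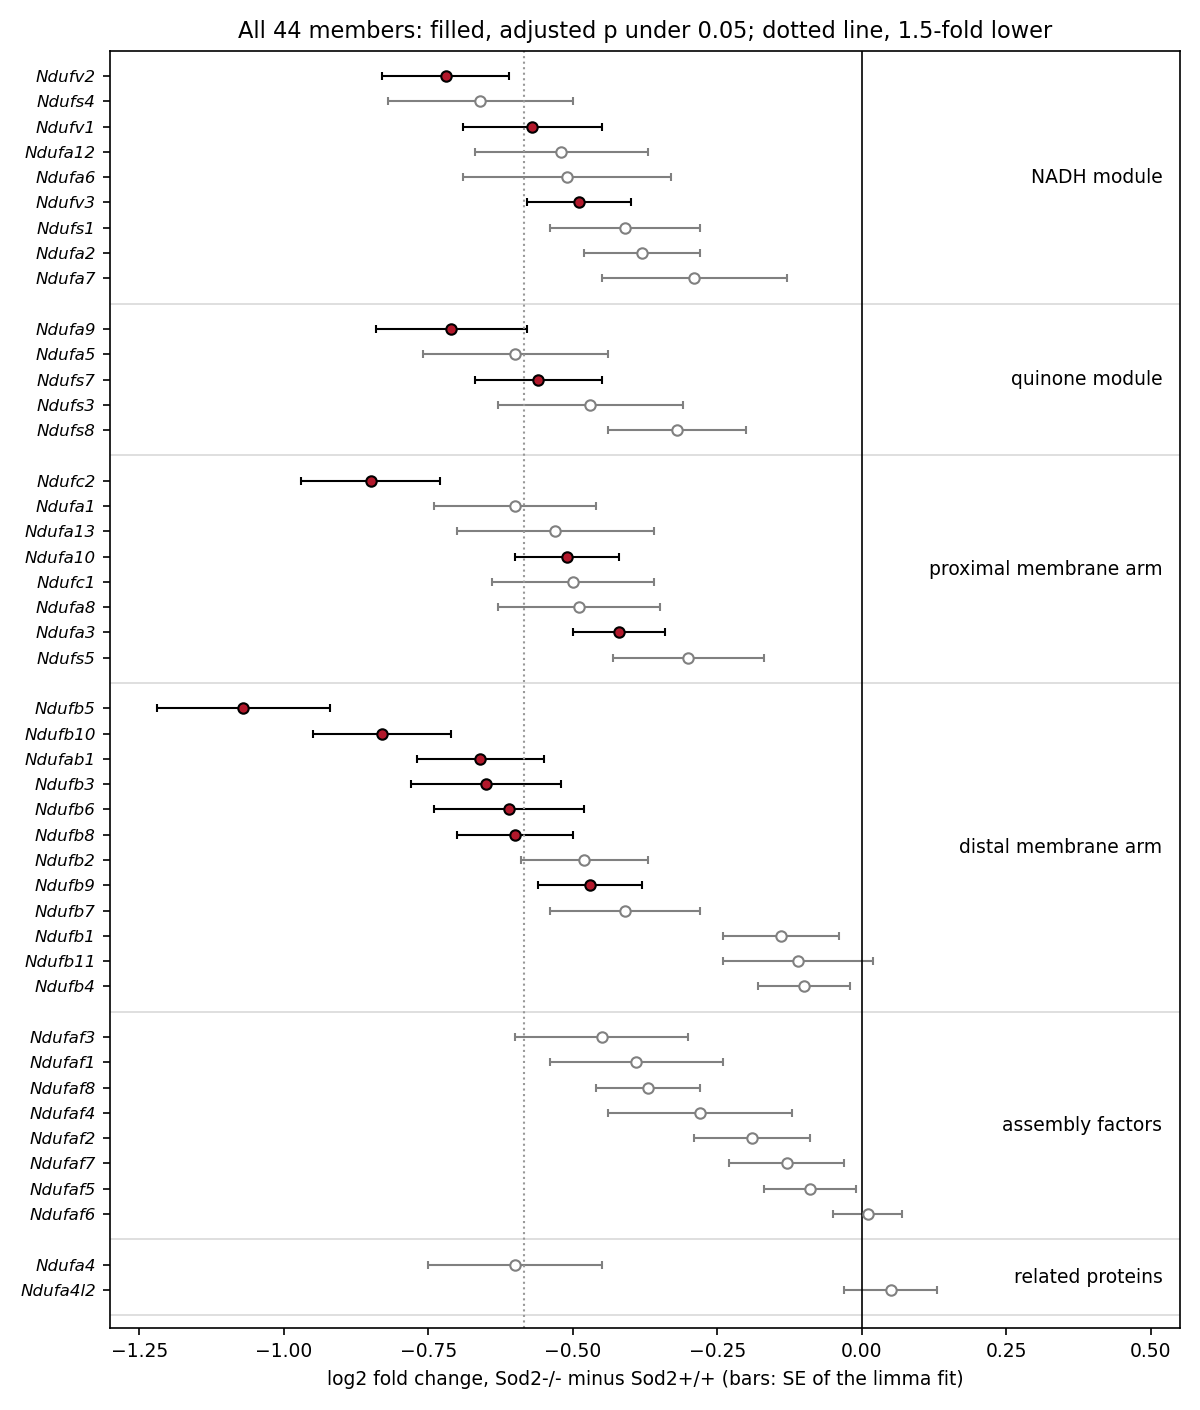
Log2 fold change (horizontal axis, Sod2-/- minus Sod2+/+, bars show the standard error of the limma fit) of the 44 complex I genes, grouped by module. Filled points passed an adjusted p of 0.05; these 15 are all subunits, and the lowest is Ndufb5 at -1.07.

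The calls rested on few arrays, and their number moved with single arrays. It was 17 without Sod2-/- replicate 31, 5 without Sod2-/- replicate 39 and 1 without Sod2-/- replicate 35. Leaving out Sod2+/+ arrays gave 6 calls without replicate 17, 3 without replicate 29, 14 without replicate 33 and 1 without replicate 37. The direction moved far less, since 41 to 43 of the 44 genes lay below 0 in each of these 7 fits and the median of the subunits stayed between -0.58 and -0.39. Over all genes the count of lower calls also dropped in these fits, to between 64 and 744 against 813 with all arrays.

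Promoter sequence is shown for a few members. The largest fall belonged to Ndufb5, an inner-membrane supernumerary subunit of the distal membrane arm. The RefSeq stretch of 250 bases before its start (GRCm38.p6, chr3:32736813-32737062, plus strand, 59.6% G or C) reads, with no motif match to mark in capitals:
Ndufb5: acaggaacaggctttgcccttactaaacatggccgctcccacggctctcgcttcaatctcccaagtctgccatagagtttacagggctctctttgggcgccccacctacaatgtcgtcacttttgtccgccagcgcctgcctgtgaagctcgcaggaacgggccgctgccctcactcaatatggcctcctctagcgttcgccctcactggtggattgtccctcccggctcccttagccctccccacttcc

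The 4 motifs searched are known from nuclear genes of the respiratory chain. They were looked for on both strands of the RefSeq windows, each with 250 bases before and 50 after a start: GCGCA, any base, GCGC (NRF1), CCGGAAG (ETS factors such as GABPA), AAGATGGCG (YY1) and TNAAGGTCA (ERRA, with N any base). Windows were found for 39 of the 44 genes. The NRF1 letters were in 7 of the 39 (17.9%), where 8.63% of the windows of 14368 genes on the array held them. The sites below show that NRF1 group, 30 bases each in GRCm38.p6, with the matched letters in capitals. For Ndufb4, which holds 3 matches, the one nearest to the start is shown.
Ndufa5 (chr6:24527697-24527726, minus strand): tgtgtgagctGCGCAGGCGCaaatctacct
Ndufs5 (chr4:123718265-123718294, minus strand): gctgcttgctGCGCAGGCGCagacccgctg
Ndufb4 (chr16:37654371-37654400, minus strand): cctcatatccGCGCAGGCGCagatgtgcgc
Ndufa8 (chr2:36049349-36049378, minus strand): ctagagcagtGCGCTTGCGCgtcgctggag
Ndufa6 (chr15:82354249-82354278, minus strand): ccgtggcaccGCGCGTGCGCacgctgaagg
Ndufaf4 (chr4:24897960-24897989, plus strand): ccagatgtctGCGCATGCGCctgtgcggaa
Ndufaf5 (chr2:140170652-140170681, plus strand): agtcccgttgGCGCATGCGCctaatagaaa
The first 3 share the same 10 letters. Ndufa8 and Ndufa6 hold the motif on the reverse strand, and in Ndufaf4 and Ndufaf5 the letters read alike on both strands. None of the 14 called subunits with a window held the NRF1 letters, against 5 of the 17 subunits that were not called, and no test was made of this split. With 14 genes, a count of 0 cannot be told from the share of 8.63%. Among those 5, Ndufb4 was read on a dim probe set (mean 4.00), and brighter probe sets that it shares with Ndufb4b and Ndufb4c were called lower.

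The YY1 letters were found in 5 of the 39 genes (12.8%), where 2.54% of the genes on the array held them. All 5 matches began within 36 bases after the start and lay on the gene's own strand.
Ndufa9 (chr6:126849096-126849125, minus strand): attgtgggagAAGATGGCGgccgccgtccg
Ndufs7 (chr10:80249463-80249492, plus strand): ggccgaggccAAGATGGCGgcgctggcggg
Ndufs4 (chr13:114388045-114388074, minus strand): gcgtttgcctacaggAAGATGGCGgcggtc
Ndufc1 (chr3:51408914-51408943, minus strand): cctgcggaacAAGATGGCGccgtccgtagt
Ndufaf8 (chr11:120098934-120098963, plus strand): ggcagggcccAAGATGGCGgcgccctcgag
Ndufa9 and Ndufs7 of this group were called lower, and the other 3 were not. The ETS letters were in 6 of 39 genes, against 15.0% of the genes on the array, and 1 of these 6, Ndufb6, was a called subunit. The ERRA letters were in Ndufb4 alone, against 1.2% of the genes on the array. A match describes letters in a window and says nothing of binding.

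In the distal membrane arm, 7 of 12 measured subunits were called lower, 6 of them at 1.5-fold or more, and the median log2 fold change was -0.54. On the log2 scale Ndufb5 measured 7.07, 6.39 and 6.75 in Sod2-/- replicates 31, 35 and 39, against 7.72, 7.83, 7.67 and 8.01 in Sod2+/+ replicates 17, 29, 33 and 37. The groups did not overlap, and replicate 35 was the lowest of all. The change was -1.07 (SE 0.15, adjusted p = 0.0180), a 2.10-fold lower level, and a dimmer probe set of Ndufb5 gave -0.97 (adjusted p = 0.0474). Without Sod2+/+ replicate 29 or 37 the adjusted p was 0.0522 or 0.0510, and it stayed under the threshold without each of the other 5 arrays.

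Ndufb10, a supernumerary subunit with disulfide bonds that faces the intermembrane space, had 7.99, 7.66 and 7.63 in Sod2-/- replicates 31, 35 and 39, against 8.56, 8.83, 8.39 and 8.59 in Sod2+/+ replicates 17, 29, 33 and 37. All 3 Sod2-/- values lay below every Sod2+/+ value. Its change was -0.83 (SE 0.12, adjusted p = 0.0208). Ndufb10 lies on chromosome 17, which also carries Sod2. It is 10 measured genes away from Tsc2 (-0.99, adjusted p = 0.0209) and 15 away from Ift140 (-4.47, adjusted p = 1.4e-05). E4f1, 19 genes away, was higher (1.45, adjusted p = 0.00441).

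Ndufab1 is the mitochondrial acyl carrier protein, which also serves fatty acid and lipoic acid synthesis, and complex I holds it in both arms. Its values were 7.68, 7.47 and 7.73 in Sod2-/- replicates 31, 35 and 39 and 8.33, 8.42, 8.04 and 8.36 in Sod2+/+ replicates 17, 29, 33 and 37. The change was -0.66 (SE 0.11, adjusted p = 0.0243), and the genotypes stood apart. Ndufb3, another membrane-arm subunit, had 7.89, 7.37 and 7.64 in Sod2-/- replicates 31, 35 and 39 and 8.17, 8.41, 8.14 and 8.41 in Sod2+/+ replicates 17, 29, 33 and 37, a change of -0.65 (SE 0.13, adjusted p = 0.0379). Here too no value crossed, with Sod2-/- replicate 31 nearest to the Sod2+/+ group.

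Ndufb6 measured 8.20, 7.80 and 8.00 in Sod2-/- replicates 31, 35 and 39, against 8.53, 8.77, 8.38 and 8.75 in Sod2+/+ replicates 17, 29, 33 and 37 (-0.61, SE 0.13, adjusted p = 0.0408). The gap between the groups was narrow, and a dimmer probe set with a larger change of -0.97 had an SE of 0.27 and did not pass (adjusted p = 0.0877). Ndufb8, a subunit often used as a protein marker of assembled complex I, had 9.14, 8.83 and 9.08 in Sod2-/- replicates 31, 35 and 39, against 9.53, 9.78, 9.53 and 9.63 in Sod2+/+ replicates 17, 29, 33 and 37. The groups did not meet, and the change was -0.60 (SE 0.10, adjusted p = 0.0245).

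Ndufb9, an LYR-motif subunit, had 10.19, 10.38 and 10.27 in Sod2-/- replicates 31, 35 and 39 and 10.74, 10.90, 10.61 and 10.76 in Sod2+/+ replicates 17, 29, 33 and 37. It was the brightest subunit called, and replicate 35 was its highest Sod2-/- value instead of its lowest. The change was -0.47 (SE 0.09, adjusted p = 0.0289), and a second bright probe set gave -0.51 (adjusted p = 0.0474), while a dim one gave 0.18 (adjusted p = 0.298). Ndufb2 did not pass at -0.48 (SE 0.11, adjusted p = 0.0577), although its values of 8.86, 8.48 and 8.68 in Sod2-/- replicates 31, 35 and 39 lay below those of 9.25, 9.30, 8.97 and 9.09 in Sod2+/+ replicates 17, 29, 33 and 37. A dim Ndufb2 probe set pointed upward at 0.29 (adjusted p = 0.130).

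Ndufb11, an X-linked membrane subunit, was singled out after its values were seen because it was bright and nearly level. It had 10.02, 9.70 and 10.31 in Sod2-/- replicates 31, 35 and 39, against 10.12, 10.21, 10.02 and 10.13 in Sod2+/+ replicates 17, 29, 33 and 37. The Sod2-/- values spanned the Sod2+/+ values, with replicate 39 above and replicate 35 below all of them. Its change was -0.11 (95% interval -0.41 to 0.18, adjusted p = 0.695), and its other bright probe sets gave -0.18 and -0.14. Ndufb7 lay at -0.41 (adjusted p = 0.117). Ndufb1 (-0.14) and Ndufb4 (-0.10) were measured by dim probe sets with mean log2 values of 4.81 and 4.00, and for Ndufb4 a pair of brighter probe sets shared with Ndufb4b and Ndufb4c gave -0.58 and -0.54 (adjusted p = 0.0344 and 0.0258).

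**Figure D2:**
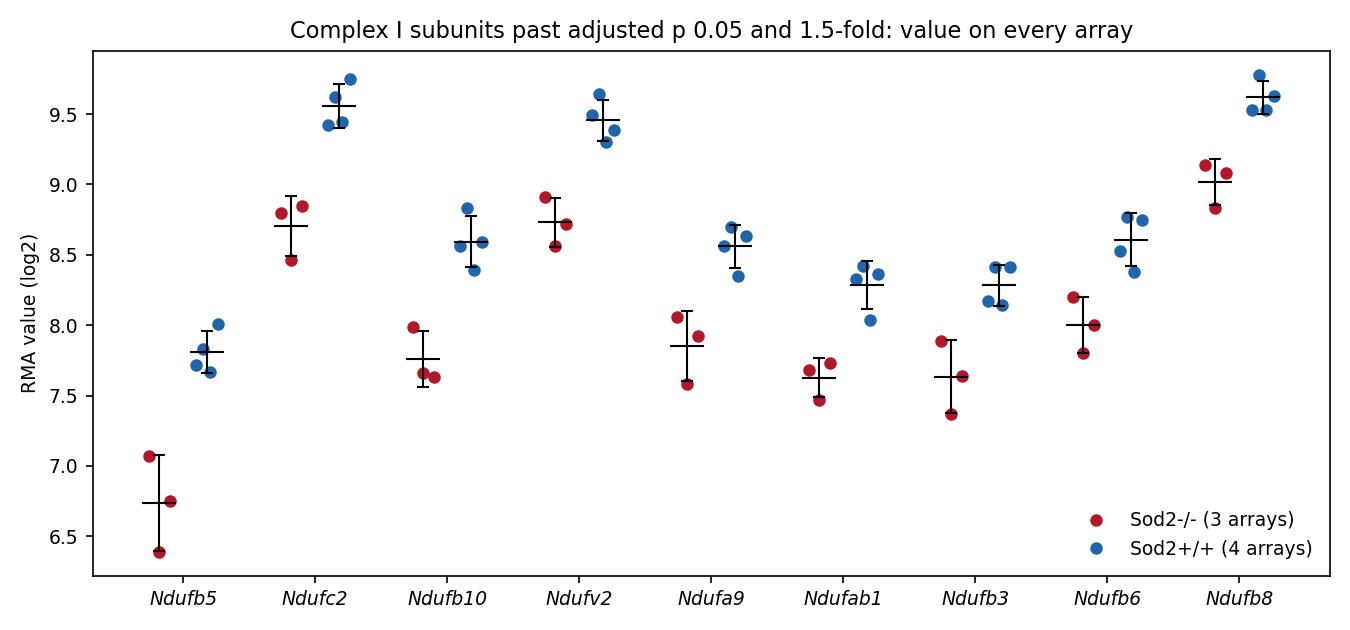
RMA log2 value (vertical axis) of the 9 complex I subunits past an adjusted p of 0.05 and 1.5-fold, with Sod2-/- arrays (red, 3) left of Sod2+/+ arrays (blue, 4), and the mean and SD in black. No Sod2-/- point reaches a Sod2+/+ point of the same gene, and Ndufb5 has the widest gap between means.

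In the proximal membrane arm, 3 of 8 measured subunits were called and the median was -0.50. Ndufc2, a small subunit at the junction of the membrane arm, had the lowest adjusted p of all 44 genes. Its values were 8.80, 8.46 and 8.85 in Sod2-/- replicates 31, 35 and 39, against 9.42, 9.62, 9.44 and 9.75 in Sod2+/+ replicates 17, 29, 33 and 37. The lowest Sod2+/+ value stood well above the highest Sod2-/- value. The change was -0.85 (SE 0.12, adjusted p = 0.0167), and other probe sets called Ndufc2 lower as well at -0.81 and -0.65, while a dim one gave 0.20 (adjusted p = 0.377). Ndufc2 kept its call without each array in turn except Sod2-/- replicate 35, where the adjusted p was 0.0512.

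Ndufa10, a nucleoside kinase-like subunit, had 8.21, 8.13 and 8.31 in Sod2-/- replicates 31, 35 and 39 and 8.84, 8.81, 8.61 and 8.62 in Sod2+/+ replicates 17, 29, 33 and 37. The Sod2-/- values were tightly grouped below the others, and the change was -0.51 (SE 0.09, adjusted p = 0.0266). Its dim second probe set did not move (0.00, adjusted p = 0.995). Ndufa3 was called lower on both of its bright probe sets, at -0.42 and -0.54 (adjusted p = 0.0303 and 0.0290). The 5 subunits of this arm that did not pass lay between -0.60 for Ndufa1, the X-linked essential subunit (adjusted p = 0.0559), and -0.30 for Ndufs5 (adjusted p = 0.235), with Ndufa13, also known as GRIM-19, at -0.53 (adjusted p = 0.131). A probe set shared by Ndufa11 and Ndufa11b gave -0.36 (adjusted p = 0.118).

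In the NADH module, 3 of 9 measured subunits were called and the median was -0.51. Ndufv2, a core subunit that holds an iron-sulfur cluster, had 8.91, 8.56 and 8.72 in Sod2-/- replicates 31, 35 and 39, against 9.49, 9.64, 9.30 and 9.39 in Sod2+/+ replicates 17, 29, 33 and 37. No value crossed between genotypes, and the change was -0.72 (SE 0.11, adjusted p = 0.0206). Other Ndufv2 probe sets gave -0.69 and -0.60 but did not pass (adjusted p = 0.0603 and 0.0636).

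Ndufv1, the core subunit that binds the flavin and NADH, had 8.49, 8.32 and 8.06 in Sod2-/- replicates 31, 35 and 39 and 8.80, 9.09, 8.77 and 8.77 in Sod2+/+ replicates 17, 29, 33 and 37. Replicate 29 stood above the other Sod2+/+ arrays. The change was -0.57 (SE 0.12, adjusted p = 0.0424), and both other Ndufv1 probe sets were called as well, at -0.70 and -0.74. Ndufv3, its supernumerary neighbour, was called at -0.49 (adjusted p = 0.0300).

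Ndufs1, the largest core subunit, had 7.97, 7.54 and 7.75 in Sod2-/- replicates 31, 35 and 39, against 8.11, 8.45, 8.03 and 8.08 in Sod2+/+ replicates 17, 29, 33 and 37. The groups did not overlap but replicates 31 and 33 lay close, and the change of -0.41 (SE 0.13, adjusted p = 0.123) did not pass. Ndufa12, a subunit at the join of the matrix arm modules, had 8.46, 7.93 and 8.59 in Sod2-/- replicates 31, 35 and 39 and 8.84, 8.97, 8.75 and 8.81 in Sod2+/+ replicates 17, 29, 33 and 37, a change of -0.52 (SE 0.15, adjusted p = 0.0944). Replicate 35 accounted for most of the spread. A dimmer Ndufa12 probe set was called at -0.59 (adjusted p = 0.0289), so the call for this gene depended on the probe set. Ndufs4 (-0.66, adjusted p = 0.0641), whose loss in mice gives a model of Leigh syndrome, missed the threshold, as did Ndufa6, Ndufa2 and Ndufa7 (-0.51, -0.38 and -0.29). A probe set shared by Ndufs6 and Ndufs6b was lower at -0.60 (adjusted p = 0.0360).

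In the quinone module, 2 of 5 measured subunits were called and the median was -0.56. Ndufa9, a subunit near the ubiquinone site, had 8.06, 7.58 and 7.92 in Sod2-/- replicates 31, 35 and 39, against 8.56, 8.70, 8.35 and 8.63 in Sod2+/+ replicates 17, 29, 33 and 37. The groups stood apart, and the change was -0.71 (SE 0.13, adjusted p = 0.0287). Ndufs7, the core subunit with the last iron-sulfur cluster before ubiquinone, had 7.61, 7.43 and 7.38 in Sod2-/- replicates 31, 35 and 39 and 8.20, 8.18, 7.83 and 7.95 in Sod2+/+ replicates 17, 29, 33 and 37. Its change was -0.56 (SE 0.11, adjusted p = 0.0356), and its other probe set was called at -0.91 (adjusted p = 0.0401).

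The remaining core subunits of this module did not pass. Ndufs3 had 8.38, 8.03 and 8.55 in Sod2-/- replicates 31, 35 and 39, against 9.03, 8.87, 8.44 and 8.83 in Sod2+/+ replicates 17, 29, 33 and 37 (-0.47, SE 0.16, adjusted p = 0.144). Sod2+/+ replicate 33 lay below Sod2-/- replicate 39, so the groups overlapped. Ndufs8, which carries a pair of iron-sulfur clusters, had 9.27, 8.97 and 9.44 in Sod2-/- replicates 31, 35 and 39 and 9.65, 9.56, 9.60 and 9.37 in Sod2+/+ replicates 17, 29, 33 and 37 (-0.32, SE 0.12, adjusted p = 0.179). Its probe sets disagreed, since one was called at -0.78 (adjusted p = 0.0278) and another gave -0.08 (adjusted p = 0.797). Ndufa5 lay at -0.60 (adjusted p = 0.0878).

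The medians of the 4 modules lay between -0.56 and -0.50. Of the 6 core subunits measured, 3 were called (median -0.52), and of the 28 supernumerary subunits 12 were (median -0.51). The matrix arm had 5 calls of 14 and the membrane arm 10 of 20, with medians of -0.51 and -0.50. No test was made between these classes.

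Of the 8 Ndufaf genes, the assembly factors, 0 passed the limma test, where 4.47% of all genes were called lower. At an unadjusted limma p under 0.05, 3 were lower and 0 higher, where 3352 and 1215 of the 18193 genes were. With 8 genes, these counts cannot be told from those shares. The equal-variance and unequal-variance forms of the methods' t-test, after Benjamini-Hochberg adjustment, called 0 of the 44 members, subunits included, and 2 and 0 of the 18193 genes lower. The median log2 fold change of the assembly factors was -0.24, against -0.51 for the subunits, a difference that was not tested. Only Ndufaf8 had groups that did not overlap, and 14.8% of all genes had such groups with Sod2-/- lower. Ndufaf3 had the lowest value, with 6.63, 6.46 and 6.47 in Sod2-/- replicates 31, 35 and 39 and 7.02, 7.28, 6.57 and 7.00 in Sod2+/+ replicates 17, 29, 33 and 37. Sod2+/+ replicate 33 fell within the Sod2-/- range, and the change was -0.45 (SE 0.15, adjusted p = 0.140). Without replicate 33 the adjusted p of Ndufaf3 was 0.0358.

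Ndufaf6 was the highest assembly factor, at 3.78, 3.73 and 3.80 in Sod2-/- replicates 31, 35 and 39 and 3.72, 3.78, 3.77 and 3.77 in Sod2+/+ replicates 17, 29, 33 and 37. These values lie near the floor of the array and were level (0.01, SE 0.06, adjusted p = 0.956). Ndufaf5, which in human cells hydroxylates NDUFS7, was dim as well, with 4.40, 4.38 and 4.40 in Sod2-/- replicates 31, 35 and 39 and 4.38, 4.46, 4.44 and 4.65 in Sod2+/+ replicates 17, 29, 33 and 37 (-0.09, SE 0.08, adjusted p = 0.586). The other 5 were Ndufaf1 (-0.39), which in human cells works with ECSIT and ACAD9 in membrane-arm assembly, Ndufaf8 (-0.37, adjusted p = 0.0660), Ndufaf4 (-0.28), Ndufaf2 (-0.19), a paralog of Ndufa12, and Ndufaf7 (-0.13), a mitochondrial methyltransferase.

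Level and class went together here. The assembly factors had a median level of 5.29 on the log2 scale and the subunits one of 8.47. Among genes of mean level 4 to 6, the 8 complex I genes had a median of -0.13 and all 9604 genes one of 0.05. At levels of 6 to 8 the medians were -0.49 for 9 complex I genes and -0.21 for 3630 genes, at 8 to 10 they were -0.53 for 21 and -0.29 for 1435, and above 10 they were -0.42 for 5 and -0.12 for 439. The complex I median was thus below that of all genes in each of these 4 ranges. Ndufaf3 and Ndufaf8 (mean levels of 6.78 and 7.37) had log2 fold changes of -0.45 and -0.37, and neither passed the test.

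**Figure D3:**
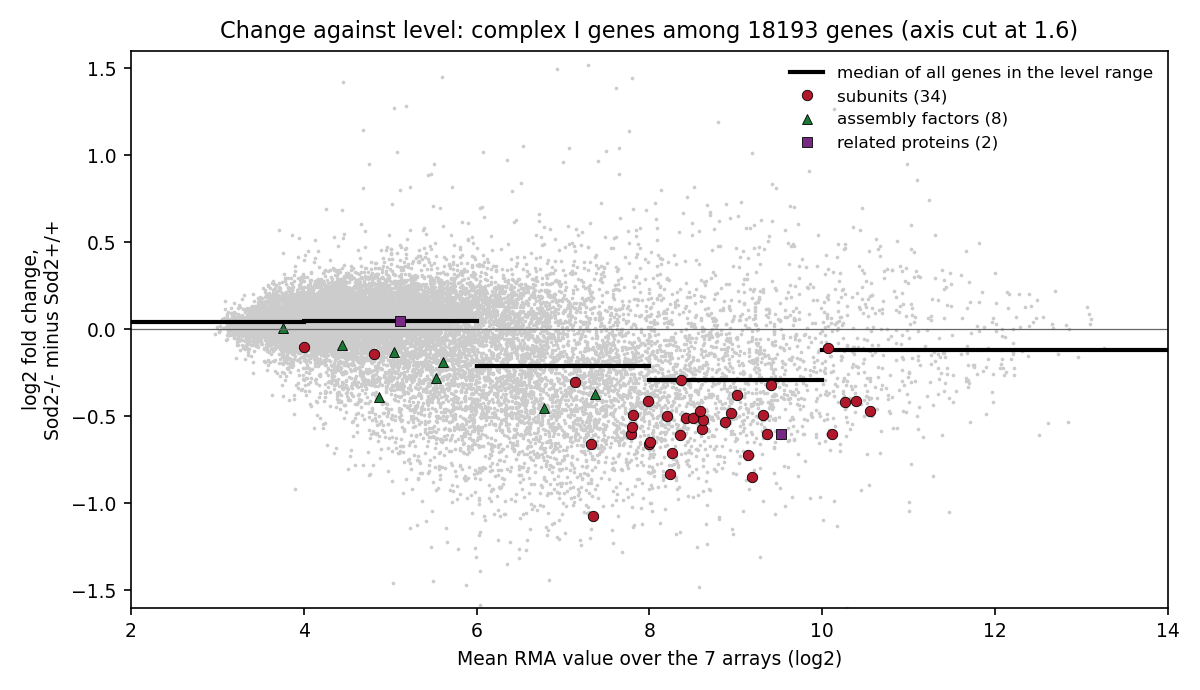
Log2 fold change (vertical axis, Sod2-/- minus Sod2+/+) against the mean RMA log2 value over the 7 arrays (horizontal axis) for 18193 genes in grey, with subunits, assembly factors and related proteins marked and black lines at the median of all genes in each level range. From level 4 to 10 most complex I genes lie under the line, and 6 of the 8 assembly factors lie at levels under 6. Points beyond 1.6 are not drawn.

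Of the related proteins, Ndufa4 had a change of -0.60 (SE 0.15, adjusted p = 0.0736), with no overlap between groups. Ndufa4l2, a hypoxia-responsive paralog, was the highest of the 44 genes, with 5.11, 5.13 and 5.21 in Sod2-/- replicates 31, 35 and 39 and 5.19, 4.95, 5.15 and 5.09 in Sod2+/+ replicates 17, 29, 33 and 37. The groups overlapped, and the change was 0.05 (SE 0.08, adjusted p = 0.759).

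The subunits moved together from array to array, and within the Sod2+/+ group the bright genes moved alike. The median deviation of the 34 subunits from their Sod2+/+ means was -0.40, -0.75 and -0.41 on Sod2-/- replicates 31, 35 and 39, and 0.00, 0.14, -0.15 and 0.00 on Sod2+/+ replicates 17, 29, 33 and 37. That of the bright genes was -0.12, -0.31 and -0.24 on the same Sod2-/- arrays and between -0.11 and 0.14 on the Sod2+/+ arrays. Sod2-/- replicate 35 was the lowest of its group for 28 of 34 subunits, against 51.5% of the bright genes. Within the Sod2+/+ group, replicate 33 was the lowest for 29 of 34, against 51.7% of the bright genes, and replicate 29 the highest for 24 of 34, against 65.1%. The assembly factors had medians of -0.19, -0.38 and -0.13 on the Sod2-/- arrays and between -0.07 and 0.09 on the Sod2+/+ arrays, so the order of the Sod2-/- arrays was led by replicate 35 in both classes. That array also had the lowest neutrophil marker median deviation (-1.50, against -0.13 and -0.74 on replicates 31 and 39), and its part was not tested. On replicate 31, 34 of 34 subunits lay below their Sod2+/+ means, as did 66.6% of the bright genes. The B cell markers had their lowest median deviation on that array (-1.15, against -0.78 and -0.75 on replicates 35 and 39), and their part was not tested.

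**Figure D4:**
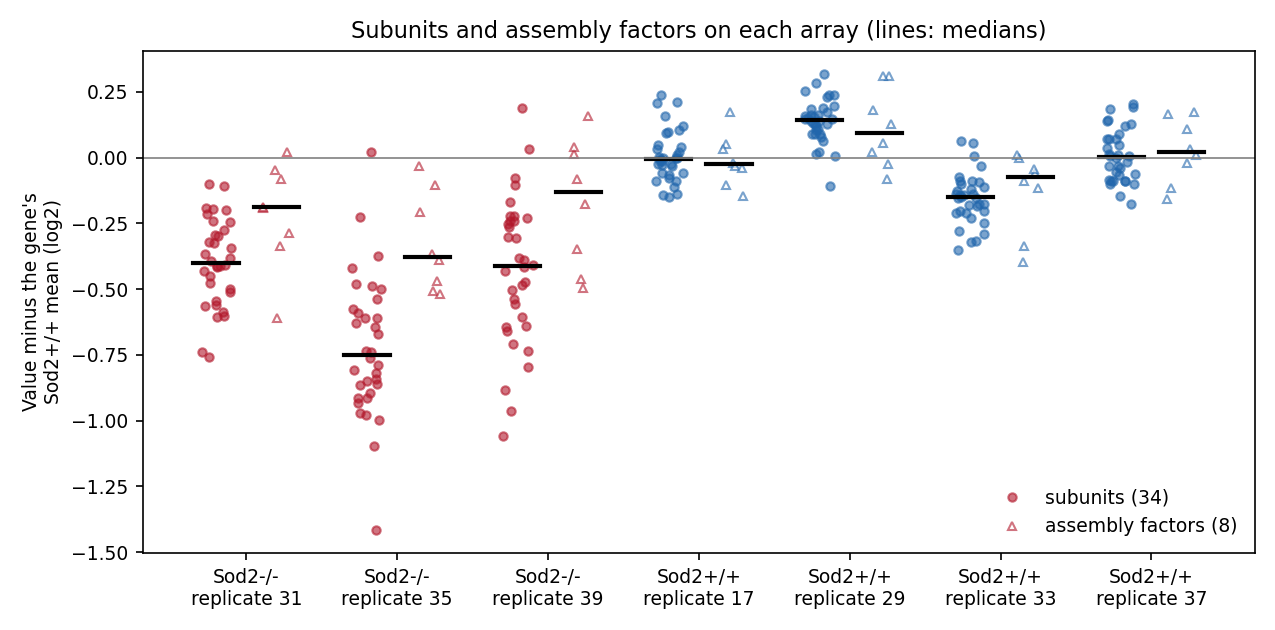
Deviation of each subunit (filled circles, 34) and assembly factor (open triangles, 8) from its Sod2+/+ mean on the log2 scale (vertical axis), for the 3 Sod2-/- arrays on the left and the 4 Sod2+/+ arrays on the right, with medians as black lines. The subunit medians of the Sod2-/- arrays lie at -0.40, -0.75 and -0.41, and those of the Sod2+/+ arrays between -0.15 and 0.14.

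The arrays were washed on 2 fluidics stations, each of which held both genotypes. Within station 1, which set Sod2-/- replicate 31 alone against Sod2+/+ replicates 17 and 29, 34 of 34 subunits lay below 0 with a median of -0.47, and the median of the bright genes was -0.16. Within station 2, which set Sod2-/- replicates 35 and 39 against Sod2+/+ replicates 33 and 37, 34 of 34 lay below 0 with a median of -0.47, and the median of the bright genes was -0.25. The limma fit within station 2 called 0 members lower, but it also called 0 of the 18193 genes lower, so this is no result about complex I. At an unadjusted p under 0.05 in that fit, 23 of 44 members were lower and 0 higher. The share of all genes was not counted, so this count is no result about complex I either. In station 1 the lone Sod2-/- array is assumed to vary like the Sod2+/+ arrays. With station as a block, 14 members were called lower, as were 2.70% of all genes. Chip lot B held Sod2-/- arrays alone, so within lot A the comparison is of Sod2-/- replicate 35 with the 4 Sod2+/+ arrays, and it gave a subunit median of -0.75 against -0.31 for the bright genes. In that fit, which rests on 1 Sod2-/- array assumed to vary like the others, 7 members and 1.62% of all genes were called lower.

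Forcing the same distribution on every array lessened the change. After quantile normalization the subunit median was -0.29 and that of the bright genes -0.05, and 10 subunits were called lower, 3 of them at 1.5-fold or more, against 5.50% of the bright genes and 2.78% of all genes called lower. All 10 were among the 15 called on the deposited values. The distal membrane arm kept 7 calls, and each of the other 3 modules had 1. On these values 33 of 34 subunits lay below 0.

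**Figure D5:**
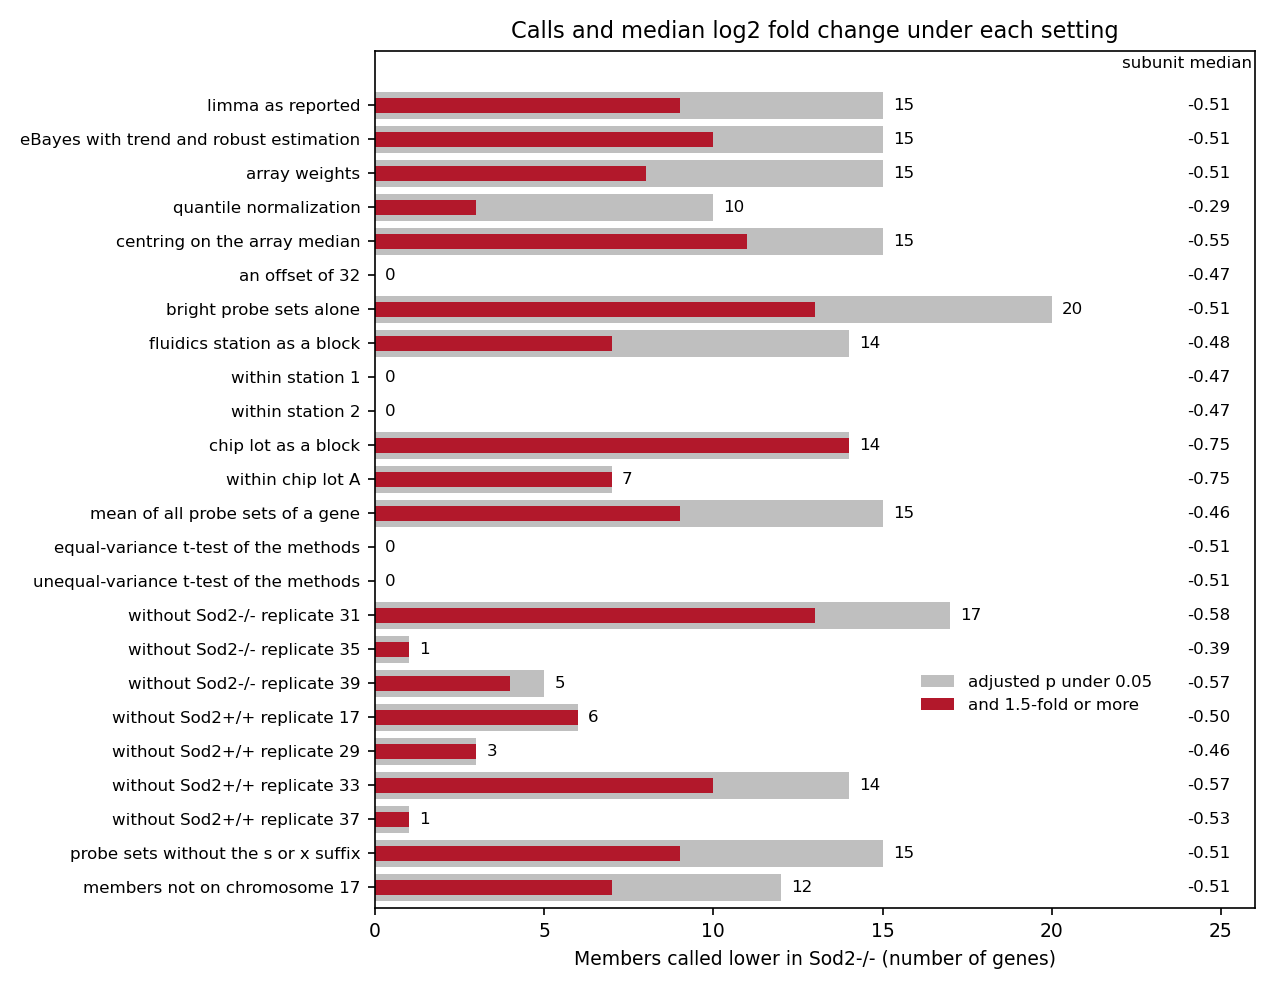
Number of complex I genes called lower in Sod2-/- (horizontal axis, grey: adjusted p under 0.05, red: 1.5-fold as well) under each setting, with the median log2 fold change of the subunits at the right. Calls run from 0 to 20 while the subunit median stays between -0.75 and -0.29.

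Counts for genes of the same pathway outside the prefix are read against genes of roughly like level. Complexes II to IV and ATP synthase are set beside the bright genes, of which 11.8% were called lower with a median log2 fold change of -0.25. The other assembly factors were dim, with a median level of 4.77, and are set beside all genes. Of all genes 4.47% were called lower with a median of 0.02, and genes of mean level 4 to 6 had a median of 0.05. Of 10 other assembly factors of complex I, 1 was called lower, Aifm1, the mitochondrial flavoprotein AIF, at -0.66 (adjusted p = 0.0278), and their median was -0.13. Complex II had 1 call of 4 (median -0.50), with Sdhd at -0.71 (adjusted p = 0.0177). Complex III had 2 of 9 (median -0.32), with Uqcrc1 at -0.73 and Uqcrc2 at -0.63 (adjusted p = 0.0185 and 0.0460). Complex IV had 1 of 9 (median -0.27), with Cox6c at -0.40 (adjusted p = 0.0471). Its genes were brighter than most of the bright genes (median level 11.01), and genes of mean level above 10 had a median of -0.12. Cox7c of this list was read on a dim probe set (mean 3.70). ATP synthase had 7 of 15 (median -0.47), with the c-ring genes Atp5g2 at -1.0 and Atp5g1 at -0.69 (adjusted p = 0.0150 and 0.0452). None of these lists had a gene called higher by limma, and none had one higher at an unadjusted p under 0.05.

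Chromosome 17, which carries Sod2, held 5 of the complex I genes. Of these, Ndufv2, Ndufv3 and Ndufb10 were called lower and Ndufa7 (-0.29) and Ndufaf7 (-0.13) were not. On the other chromosomes 12 of 39 were called. Of all genes, 5.52% on chromosome 17 and 4.45% elsewhere were called lower.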

How the data were processed

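RNA of 7 sorted erythroblast samples was hybridised to an Affymetrix mouse array. The authors deposited log2 values from RMA, a robust average over the probes of each probe set after background correction and normalization between arrays. The deposited values still differed at their upper end, with 95th percentiles from 8.20 to 8.71. The normalization settings behind them are not known. GCOS 1.3.037 is also named in the submitters' processing notes. It is unknown if a further Sod2-/- array of the study was part of the RMA run. That array, the GLYCOv2 arrays and the raw intensities were not used here. The paper reports slight RNA degradation in a Sod2-/- specimen, and similar results when it was left out. Whether that specimen is among the Sod2-/- arrays used here is not known. Each array's settings file gave its chip lot and fluidics station.

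The array holds 45101 probe sets. Without its 64 control sets and with no filter on low values, 45037 entered the test. GEO's platform annotation matched 34945 of them to 1 gene, 932 to several and 9160 to none. For each gene, the probe set with the highest mean among those matched to it alone was used. Genotypes were compared with limma 3.58.1 under R 4.3.3 (lmFit, then eBayes, with genotype alone in the model). P-values were adjusted by the Benjamini-Hochberg method over the 45037 probe sets, and 0.05 was the threshold. An adjusted p in the text comes from this fit where no other is named. Errors are the SE of the fit. Counts were also made at 1.5-fold. Lists are described by counts and medians beside those of all genes, with no test. Promoter sequences and chromosomes are from RefSeq tables of GRCm38.p6.

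Values on every array are given for members past the threshold at 1.5-fold, the nuclear core subunits, the 3 members with the highest change, the lowest and highest assembly factor, Ndufb5 (measured by PCR in the study), and members whose probe sets above the median level of 4.48 differ in call or sign. From each comparison list the 2 largest changes past the threshold are named, or the largest 1. The members and lists were chosen with earlier results of these data known.

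The alternatives were array weights (statmod 1.5.0), a robust eBayes with an intensity trend, quantile normalization, centring on the array median, an offset of 32 on the linear scale, probe sets above the median level alone, fluidics station and chip lot as blocks and within each, an average over all of a gene's probe sets, the methods' t-test with equal or unequal variances, and leaving out each array. The use of probe sets without the s or x suffix, whose probes are less likely to bind other transcripts, and the count off chromosome 17 were added after the values were seen. The procedure was tested on simulated data. Precision is limited by the small number of arrays.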

Additional observations from a re-analysis of the deposited data

Results flagged for a closer look

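In the Sod2+/+ group of 4 arrays, Ndufv1 had 1 array apart from the others, replicate 29 at a log2 value of 9.09, against 8.80, 8.77 and 8.77 on replicates 17, 33 and 37. Its gap to the nearest array was 0.913 of the group's range, above Dixon's critical value for 4 samples. Of the 22 members named by the rules above this was the only 1, and chance flags about 1 group in 20. Ndufb11, singled out later, was not among those checked. Without replicate 29 the change of Ndufv1 had an adjusted p of 0.0930 by limma, against 0.0424 with it.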

How the results depend on the processing

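No paired analysis was possible because the replicate numbers are not shared between the genotypes, and the labels do not say which samples were sorted together. The direction was the same under every alternative for the medians of the subunits and assembly factors, and no named member changed sign at a call. The number of members called lower was 15 by limma, 9 of them at 1.5-fold, and 0 were called higher under any alternative listed above. With an offset of 32 the counts were 0 and 0 (lowest adjusted p 0.0502 by limma), where 0.649% of all genes were called lower. Without adjustment 32 members were lower in that fit, and the share of all genes was not counted. The assembly factor median with the offset was -0.14. Within station 1, with its lone Sod2-/- array, the subunit median was -0.47. Within station 2 the counts were 0 and 0 (lowest adjusted p 0.144), and that fit called 0 of the 18193 genes lower. By the equal-variance and unequal-variance methods' t-test they were 0 and 0 after adjustment, and 2 and 0 of the 18193 genes were called lower. Without adjustment 27 and 19 members were lower by these tests, and the share of all genes was not counted. Quantile normalization left 10 and 3 and a subunit median of -0.29, in place of -0.51. With chip lot as a block, the contrast rests on Sod2-/- replicate 35 alone because lot B held no Sod2+/+ array. In that fit 14 members were called, all 14 at 1.5-fold, where 2.54% of all genes were called lower. The medians were -0.75 for subunits and -0.38 for assembly factors. Within lot A, which sets Sod2-/- replicate 35 against the Sod2+/+ arrays, 7 were called, all 7 at 1.5-fold, with the same medians of -0.75 and -0.38. Leaving out 1 array gave 1 to 17 calls, 1 to 13 at 1.5-fold, subunit medians of -0.58 to -0.39 and assembly factor medians of -0.27 to -0.17. Without Sod2-/- replicate 31, 1 related protein and 1 assembly factor were among the calls, and without Sod2+/+ replicate 33, 1 assembly factor. The bright probe sets alone gave 20 calls of 41 members, which include all 15, where 11.1% of the 11962 genes in that fit were called lower. Probe sets without the s or x suffix gave 15 of 41, and members off chromosome 17 gave 12 of 39, both chosen after the values were seen. The cause of these differences was not tested. For the 22 named members, 351 results under the alternatives kept their side of the threshold, 143 lost it and 8 gained it. With 3 and 4 arrays, the smallest change called for a member was 1.34-fold, and dim genes, assembly factors among them, have little signal over background.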
